A study of Danio rerio with 121 samples.

Results

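The embryonic and larval globins, the oxygen carriers of the first zebrafish red cells, were followed over 9 stages of development, from 6 somites (6 ss) to 96 hours postfertilization (hpf). The members were the rows of the deposited count table with the symbols *hbae1.1*, *hbae1.3*, *hbae3*, and *hbae5*, which encode alpha chains, and *hbbe1.1*, *hbbe1.2*, *hbbe1.3*, *hbbe2*, and *hbbe3*, which encode beta chains. All 9 were found among 24801 gene symbols, and all 9 were among the 21638 symbols with enough counts to be tested. RNA of whole wild-type embryos of the RW strain, raised at 28 °C, was sequenced from its 3′ end by Lasy-Seq, and no library carried a treatment or a transgene.

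The libraries fall into 3 sets by their titles, and stages were compared within a set. The plain set has a number alone in its titles and holds 52 libraries, with 4 at 15 ss and 8 each at 6 ss, 20 ss, and the stages of 24, 48, 72, and 96 hpf. The S set has an S before the number and holds 29 libraries, with 5 at 15 ss and 8 each at 6 ss, 10 ss, and 96 hpf. The DrRyu set holds 40 libraries, with 8 each at 20 ss and at 24, 32, 48, and 72 hpf. A deposited sample table gives a "used number" of 1 for the S libraries of 96 hpf, 5 for the plain libraries of 96 hpf, 10 to 50 for the rest of both sets, and none for the DrRyu set. Its meaning is not described. How many embryos gave a library is open, since the labels speak of a single embryo and the study's methods of pools. The table dates plain and S libraries to 2020 and DrRyu libraries to 2021, and in comparisons between sets the set and all that came with it cannot be told apart. No source states that libraries of a group come from separate clutches, and the p-values measure the spread between these libraries. A single estimate of this spread is shared by all sets, although libraries of a group differed more in the DrRyu set. Tests that use DrRyu libraries can therefore rest on too small a spread, and tests within the plain set on too large a spread.

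Hemoglobin joins alpha and beta chains, each with a heme group that binds oxygen. The first red cells of the zebrafish arise in the intermediate cell mass and enter the circulation around the end of the first day, and their globins are later replaced by those of adult genes. In the RefSeq gene order of assembly GRCz12tu, 6 members lie together in the order *hbbe1.1*, *hbae1.1*, *hbbe1.2*, *hbbe1.3*, *hbae1.3*, and *hbae3*. Between *hbbe1.2* and *hbbe1.3* lies *hbae1.2*, which is not a member. The other 3 members lie on another chromosome, where *hbbe2* and *hbae5* are direct neighbours and *hbbe3* lies beside *hbae4*. These are called the major and the minor locus here. No coordinates are given, because the counts were made on another assembly, GRCz11.

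Totals ran from 866854 to 21646478 counts per library, with a median of 3129763. Levels are counts per 1000000 counts after TMM scaling (CPM), not divided by transcript length. The copies of *hbae1* and of *hbbe1* are much alike, so the split of counts between copies depends on how reads were assigned and is uncertain. In whole embryos, fewer red cells and less globin RNA per red cell cannot be told apart. In the DrRyu set the libraries numbered 2 at 24, 48, and 72 hpf stood apart, with summed globin levels of 809, 6505, and 1297 CPM. The 7 other libraries of these groups had medians of 6565, 33566, and 19105 CPM. Where leaving out these 3 libraries changed the number of globins called, the number without them is given too. They were singled out by globin levels, so calls that change without them depend on that choice and are not separate support.

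The 9 globins together rose from a trace to several percent of all counts by 48 hpf and then receded. In the plain set they took 0.00677% ± 0.000929 of counts at 6 ss (SD, n = 8), 0.0108% ± 0.00164 at 15 ss (SD, n = 4), and 0.0909% ± 0.00973 at 20 ss (SD, n = 8). The share then reached 0.890% ± 0.0561 at 24 hpf and 2.91% ± 0.135 at 48 hpf (SD, n = 8 each). It was 1.68% ± 0.0755 by 72 hpf and 0.796% ± 0.106 by 96 hpf (SD, n = 8 each). In summed CPM no plain library of 48 hpf overlapped with one of another plain stage, whereas the ranges of 24 and 96 hpf overlapped. S libraries had 0.00905% ± 0.00111 at 6 ss, 0.0133% ± 0.00237 at 10 ss, 0.0348% ± 0.00869 at 15 ss, and 0.902% ± 0.255 at 96 hpf. DrRyu libraries began at 0.0355% ± 0.0110 at 20 ss and had 0.607% ± 0.304 at 24 hpf. Their means for 32, 48, and 72 hpf were 1.22% ± 1.27, 3.43% ± 1.60, and 1.94% ± 0.907, respectively. Both sets that span 20 ss to 72 hpf thus had their highest mean at 48 hpf, and the DrRyu libraries spread far more. The exact binomial 95% interval of a single library's share was at most 0.0525 percentage points wide, which covers counting error only. This maximum was at 48 hpf in the plain set. At 6 ss in the plain set the widths were 0.00199 to 0.00242 percentage points, beside a mean share of 0.00677%, so counting error weighs more there.

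**Figure D1:**
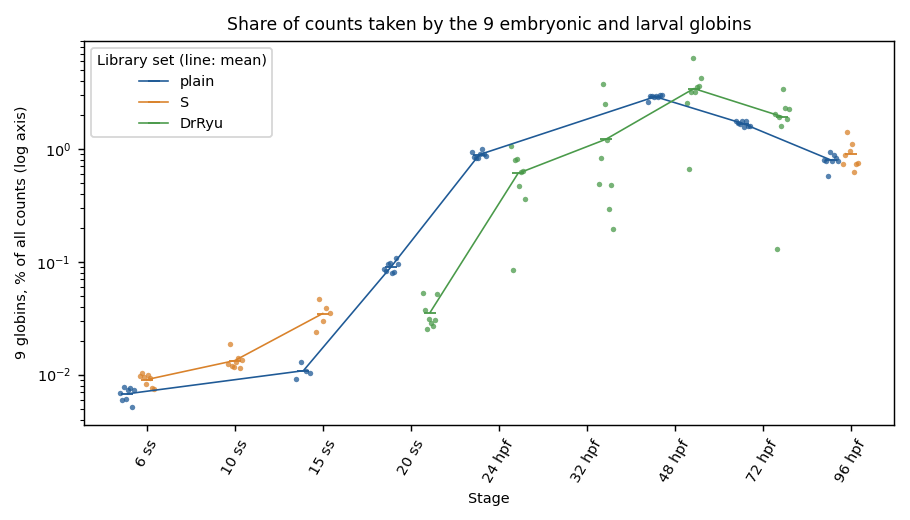
Counts of the 9 globins as a percentage of all counts of a library (log axis) by stage, with 1 point per library, coloured by library set, and lines through the means of a set. Plain libraries lie close together and reach 2.91% on average at 48 hpf, whereas DrRyu libraries spread from 0.194% to 3.78% at 32 hpf.

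Up to 15 ss all members were low, and 8 of 9 had their lowest plain means at 6 and 15 ss, the exception being *hbbe3*, with 7.34 CPM at 15 ss and 2.32 CPM at 96 hpf. At 6 ss the 6 members of the major locus had means of 6.35 to 13.4 CPM in plain and 8.03 to 20.1 CPM in S libraries. The beta chain *hbbe3* had 2.13 and 2.25 CPM, and *hbbe2* had 0.494 and 0.970 CPM. The alpha chain *hbae5* had 0 counts in all but 1 plain library of 6 ss. Its 0 counts over the 8 S libraries allow a level of up to 0.118 CPM, taking 3 counts over the group as the limit.

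The first globin to be called higher was *hbbe3*. From 6 to 10 ss, compared in the S set, 1 of 9 globins was called higher and none lower by edgeR's quasi-likelihood test at an adjusted p under 0.05, where 1.11% of all genes tested were called higher. *hbbe3* had 0.377 CPM at the lowest, 2.12 at the median, and 3.77 at the highest at 6 ss, and 9.28, 11.3, and 16.0 CPM at 10 ss. Every library of 10 ss lay above every library of 6 ss, and the log2 fold change was 2.31 ± 0.52 (SE, adjusted p = 0.00332, edgeR). *hbae5* had 8 counts in the 8 libraries of 10 ss, of which 6 were at 0, and 7 of these counts were in library 6. Its mean at 10 ss was 3.34 times the limit set by its 0 counts at 6 ss, without a call. This mean rests on library 6, so a rise of the group is not shown. The other 7 had log2 fold changes from 0.12 to 0.65.

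From 10 to 15 ss in the S set 4 of 9 globins were called higher, where 1.41% of all genes tested were. *hbbe3* went on to 39.5, 66.0, 37.7, 49.4, and 45.5 CPM in the 5 libraries of 15 ss, all above the libraries of 10 ss, with a log2 fold change of 2.03 ± 0.41. *hbae1.1* had 1.85 ± 0.38, *hbae1.3* 1.59 ± 0.38, and *hbbe1.1* 1.62 ± 0.37, so both chain types of the major locus were among the called genes. With the S set fitted alone there were 7, where 728 of 18121 genes were called in either direction. From 6 to 15 ss in the plain set, none of 9 was called by edgeR, where 2.63% of all genes tested were. At an unadjusted p under 0.05 there were 2, and DESeq2 called 0, where it called 652 of 21638 genes in either direction. *hbbe3* had 8.32, 7.77, 7.14, and 6.16 CPM in the 4 plain libraries of 15 ss, above every plain library of 6 ss (log2 fold change 1.78 ± 0.67, adjusted p = 0.158). The spread in this test is shared by all sets. With the plain set fitted alone 5 of 9 were called, where 1755 of 20304 genes were in either direction.

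Plain and S libraries of 15 ss differed in their globins. At this stage 5 of 9 globins were higher in S libraries, where 0.642% of all genes tested were. The *hbbe3* levels given above did not overlap between the sets, and its log2 difference was 2.71 ± 0.53 (adjusted p = 0.000466, edgeR). *hbae1.1* had 14.8, 15.6, 10.9, and 11.2 CPM in plain libraries and 30.6, 66.6, 33.3, 41.0, and 44.7 CPM in S libraries, with a log2 difference of 1.73 ± 0.46. *hbae1.3* differed by 1.84 ± 0.47 and *hbbe1.1* by 1.73 ± 0.46. *hbae5* had 25 counts in the S and 0 in the plain libraries, at least 7.57-fold higher with a limit of 3 counts over the plain group. Its call was lost with no filter and without libraries of low total (adjusted p = 0.0506 each, edgeR). It was also lost without S library 2, 3, 4, or 5 and without any 1 plain library. *hbbe3* was called in every alternative, but the number of globins called was 1 without S library 2 and 2 without S library 4 or 5. It was 2 without plain library 2 and 1 without plain library 1, 3, or 4. Calls over all genes, in either direction, fell too, from 183 of 21638 with all libraries. They were 138 of 21630, 140 of 21628, and 134 of 21626 without S library 2, 4, and 5, respectively. Without plain libraries 1 to 4 in turn they were 122 of 21621, 126 of 21629, 122 of 21625, and 136 of 21621.

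Other genes differed between the same libraries. Of the 4 muscle genes followed, *mylpfa* and *actc1b* were higher in S libraries of 15 ss, and of 4 hatching gland genes *he1.1* and *he1.2* were, as was *stmn1b* of 4 neuron genes. The mean log2 level of the muscle list was 4.73 to 5.06 in plain and 5.27 to 5.51 in S libraries. No gene of the 36 red cell genes described below was called between them, where 183 of 21638 genes tested were called in either direction. At so low a share, no call among 36 genes does not set them apart from other genes. The part of a difference in developmental progress in the globin result was not tested. At 6 ss 0 of 9 globins were called between plain and S libraries by edgeR, where 0.536% of all genes tested were, and at 96 hpf 0 of 9, where 1.26% were. At an unadjusted p under 0.05 there were 0 at both stages, and DESeq2 called 0 at both. Over all 21638 genes DESeq2 called 156 at 6 ss and 338 at 96 hpf in either direction. The step from 6 to 15 ss was not shown to differ between the sets for any of 9 by edgeR, where 0.176% of all genes tested were called. At an unadjusted p under 0.05 there were 4, and DESeq2 called 0, where it called 79 of 21638 genes in either direction.

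**Figure D2:**
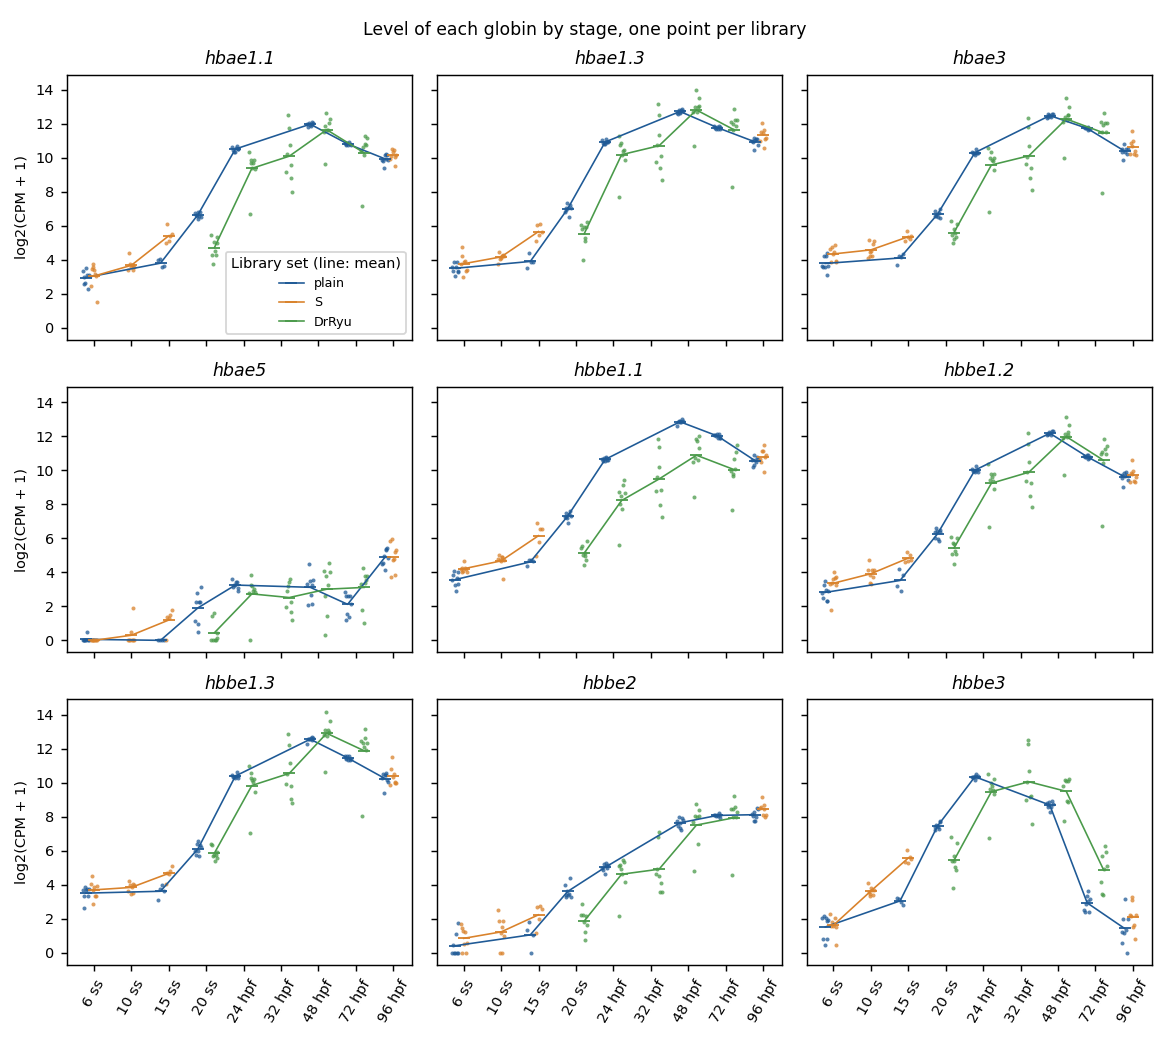
Level of each of the 9 globins, as log2(CPM + 1), by stage and library set, with 1 point per library and lines through the means of a set. *hbbe3* has its highest mean at 24 hpf in plain and at 32 hpf in DrRyu libraries and is back at a few CPM by 96 hpf, *hbbe2* is highest at 72 and 96 hpf, and *hbae5* is low throughout.

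From 15 to 20 ss in the plain set 9 of 9 globins were called higher, where 2.40% of all genes tested were. For all 9 every library of 20 ss lay above every library of 15 ss, which held for 2.86% of all genes tested. *hbae1.1*, with 10.9 to 15.6 CPM at 15 ss, had 84.1 CPM at the lowest, 97.6 at the median, and 114 at the highest at 20 ss. Its log2 fold change was 2.93 ± 0.44 (adjusted p = 1.63e-07, edgeR). *hbbe3* rose most among the members with counts at both stages, to 146, 172, and 210 CPM, with a log2 fold change of 4.59 ± 0.54 (adjusted p = 1.50e-11). The other members of the major locus had 2.59 ± 0.46 (*hbbe1.3*) to 3.17 ± 0.46 (*hbae1.3*), and *hbbe2* had 3.13 ± 0.69. *hbae5*, with 74 counts at 20 ss and 0 at 15 ss, was at least 17.8-fold higher with a limit of 3 counts over the 4 libraries of 15 ss. The median log2 fold change of the 9 was 2.93, also with *hbae5* at this bound, beside 0.00 for all genes tested.

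At 20 ss *hbbe3* had the largest mean share of beta globin counts in the plain set, with overlap with that of *hbbe1.1*. It took 35.7% on average, from 31.8% to 39.7% over the 8 libraries. *hbbe1.1* took 32.3%, from 28.5% to 38.6%, *hbbe1.2* 15.5%, *hbbe1.3* 14.1%, and *hbbe2* 2.36%. The share of *hbbe3* had been 6.88% at 6 ss and 13.6% at 15 ss. In the S set it went from 5.09% at 6 ss to 17.5% at 10 ss and 27.0% at 15 ss. In the DrRyu libraries of 20 ss *hbbe1.3* had the largest mean share, 31.5%, and *hbbe3* had 24.7%. The 3 members of the minor locus, mostly *hbbe3* at this stage, took 23.0% ± 1.88 of globin counts at 20 ss in the plain set (SD, n = 8), its highest share of any group.

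From 20 ss to 24 hpf 8 of 9 globins were called higher in the plain set, where 10.6% of all genes tested were, and these 8 did not overlap between the stages, which held for 6.90% of all genes tested. *hbbe1.3* had the largest log2 fold change, 4.27 ± 0.34 (adjusted p = 8.25e-22, edgeR), from 50.3, 67.6, and 94.1 CPM at 20 ss to 1249, 1318, and 1563 CPM at 24 hpf (lowest, median, and highest). The 5 others of the major locus had 3.32 ± 0.33 (*hbbe1.1*) to 3.92 ± 0.33 (*hbae1.3*). The minor locus moved less, with 2.90 ± 0.33 for *hbbe3* and 1.46 ± 0.36 for *hbbe2*. *hbae5* had 0.409, 3.76, and 7.87 CPM at 20 ss and 6.49, 8.48, and 11.1 CPM at 24 hpf, with a log2 fold change of 1.32 ± 0.52 that was not called (adjusted p = 0.0745) but was called in the plain set alone (adjusted p = 0.00132).

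DrRyu libraries began this step lower and all 9 globins were called higher over it, where 14.9% of all genes tested were. At 20 ss 7 of 9 globins were lower in DrRyu than in plain libraries, where 10.4% of all genes tested were. *hbbe3* had 13.3 CPM at the lowest, 40.7 at the median, and 109 at the highest in DrRyu libraries, all below the lowest plain library. Its log2 difference was -1.80 ± 0.33 (adjusted p = 9.18e-06, edgeR), while *hbbe1.2* with -0.78 ± 0.31 and *hbbe1.3* with -0.25 ± 0.31 were not called. Beside the globins, 3 of 4 muscle genes were lower in DrRyu libraries of 20 ss and 4 of 4 hatching gland genes higher, where 8.61% of all genes tested were higher. The mean log2 level of the muscle list was 4.69 to 5.40 in DrRyu and 5.84 to 6.31 in plain libraries, and the part of these differences in the globin result was not tested.

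The step from 20 ss to 24 hpf was larger in the DrRyu set for 2 of 9 globins by a test of the difference itself, where 1.57% of all genes tested were called higher. *hbbe2* rose more by 1.92 ± 0.57 on the log2 scale (adjusted p = 0.0281, edgeR), and *hbae5* by 2.63 ± 0.82 (adjusted p = 0.0415). Without the 3 libraries numbered 2 there were 4, where 1211 of 21619 genes were called in either direction. *hbae1.1* (adjusted p = 0.0283, edgeR) and *hbbe3* (adjusted p = 0.0303, edgeR) were added. These libraries were set aside for their low globin levels, so the added calls follow in part from that choice.

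The 5 beta and 4 alpha members were counted in similar amounts. The alpha genes *hbae1.2* and *hbae4* are not in these sums. The ratio of beta to alpha member counts was 1.47 ± 0.131 at 20 ss in the plain set (SD, n = 8). It was 1.13 ± 0.0432 at 24 hpf, 1.13 ± 0.0601 at 48 hpf, 1.04 ± 0.0334 by 72 hpf, and 0.884 ± 0.0211 by 96 hpf. The highest plain library of 96 hpf, 0.908, lay below the lowest of 72 hpf, 0.974. In the S libraries of 96 hpf the ratio was 0.828 ± 0.0433. DrRyu libraries had 1.59 ± 0.497 at 20 ss, and between 0.929 ± 0.0567 (72 hpf) and 1.10 ± 0.0575 (32 hpf) later.

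Between 24 and 48 hpf the members parted. In the plain set 7 of 9 globins were called higher, where 11.9% of all genes tested were, and 1 lower, where 14.3% were. The 6 members of the major locus had log2 fold changes of 1.46 ± 0.28 (*hbae1.1*) to 2.22 ± 0.31 (*hbbe1.1*). *hbbe2* rose most, from 23.6, 32.1, and 37.7 CPM to 148, 206, and 255 CPM (lowest, median, and highest), with 2.66 ± 0.33 (adjusted p = 1.74e-11, edgeR). *hbbe3* fell in the same libraries, from 1157, 1313, and 1437 CPM to 309, 426, and 479 CPM. The stages did not overlap, and the log2 fold change was -1.66 ± 0.32 (adjusted p = 8.74e-06). Its share of beta counts went from 24.7% to 2.22%. *hbae5* had medians of 8.48 and 8.68 CPM and was not called (log2 fold change 0.00 ± 0.59).

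The DrRyu set adds 32 hpf to this interval. From 24 to 32 hpf 7 of 9 globins were called higher, where 8.02% of all genes tested were, among them *hbbe3* with 1.15 ± 0.31. The medians of *hbbe3* were 836 and 835 CPM, and those of the globin share 0.635% and 0.659% of counts, while libraries 3 and 4 of 32 hpf stood above the rest with 41755 and 28108 CPM of summed globins. All 9 overlapped between the stages. DESeq2 called 4, where 1894 of 21638 genes were called in either direction. The DrRyu set fitted alone gave 1, which was *hbbe1.1*, where 506 of 18497 genes were called. From 32 to 48 hpf 7 were called higher, where 7.48% were, and *hbbe3* was called lower with a log2 fold change of -1.21 ± 0.31, where 11.8% were. Again all 9 overlapped between the stages. *hbbe3* had means of 1898 ± 2159 CPM at 32 hpf and 821 ± 374 CPM at 48 hpf (SD, n = 8 each). Its median, given below, was higher at 48 hpf, so the medians do not show this fall. The DrRyu set alone gave 5 calls, where 1498 of 18497 genes were called in either direction, and left *hbbe3* out (adjusted p = 0.0993, edgeR). Over the whole interval 7 of 9 were called higher, where 14.3% of all genes tested were.

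The fall of *hbbe3* came later in the DrRyu libraries. At 48 hpf it had a median of 990 CPM there, and between 24 and 48 hpf its log2 fold change was -0.06 ± 0.31 (adjusted p = 0.963). This step differed from that of the plain set by 1.59 ± 0.44 (adjusted p = 0.0187, edgeR), which was 1 of 9 globins where 2.81% of all genes tested were called higher. Without the 3 libraries numbered 2 the difference was 1.57 (adjusted p = 0.0123), and DESeq2 called none of 9, where it called 714 of 21638 genes in either direction. For the step from 48 to 72 hpf no globin was called between the sets by edgeR, where 2.04% of all genes tested were. At an unadjusted p under 0.05 there was 1, *hbbe3* with 1.37 ± 0.48. DESeq2 called 0, where it called 299 of 21638 genes in either direction.

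After 48 hpf most members declined. In the plain set 5 of 9 were called lower from 48 to 72 hpf, where 4.41% of all genes tested were. *hbbe3* fell most, by 5.89 on the log2 scale (SE 0.40, adjusted p = 1.52e-26, edgeR), to 4.23 CPM at the lowest, 6.88 at the median, and 11.6 at the highest. *hbae1.1* fell by 1.16, *hbae1.3* by 0.95, *hbbe1.2* by 1.38, and *hbbe1.3* by 1.10. *hbae3* with -0.76 ± 0.29 and *hbbe1.1* with -0.84 ± 0.30 missed the threshold (adjusted p = 0.0895 and 0.0643), although the stages did not overlap for either gene. With the plain set alone all 9 were called, where 3596 of 20304 genes were in either direction. Of the 9, *hbbe2* was higher (log2 fold change 0.42). In the DrRyu set 6 of 9 were called lower, where 8.77% were, *hbbe3* by 4.52 (SE 0.36). Without the 3 libraries numbered 2 there were 7, where 3676 of 21619 genes were called in either direction. With the DrRyu set fitted alone *hbbe3* was the 1 call left, where 1155 of 18497 genes were called.

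From 72 to 96 hpf in the plain set 4 of 9 were called lower, where 2.61% of all genes tested were, and 1 higher, where 2.37% were. *hbae3* fell by 1.32, *hbbe1.1* by 1.43, *hbbe1.2* by 1.17, and *hbbe1.3* by 1.18 on the log2 scale. *hbae5* was the gene called higher, from 1.29, 4.23, and 6.19 CPM to 16.9, 28.8, and 42.9 CPM (lowest, median, and highest). The stages did not overlap, and its log2 fold change was 3.01 ± 0.51 (adjusted p = 5.35e-06, edgeR). Its neighbour *hbbe2* had medians of 272 and 277 CPM and was not called (0.07 ± 0.31). *hbbe2* and *hbae5* thus had their highest plain means at 96 hpf, 282.5 and 30.2 CPM, where *hbbe3* had 2.32 CPM. In the S libraries of 96 hpf the means were 358.5 CPM for *hbbe2*, 33.3 CPM for *hbae5*, and 4.01 CPM for *hbbe3*.

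Over the whole course from 6 ss to 96 hpf 8 of 9 globins were higher in the plain set, where 32.0% of all genes tested were, and 8 of 9 in the S set, where 30.5% were. The exception in both was *hbbe3*, with 0.07 ± 0.77 in the plain and 0.56 ± 0.67 in the S set. *hbbe2* had 9.07 ± 0.57 in the plain and 8.38 ± 0.51 in the S set. *hbae5* was at least 283-fold higher at 96 hpf than the limit set by its 0 counts at 6 ss in the S set. This change was not shown to differ between the sets for any of 9 by edgeR, where 0.795% of all genes tested were called. At an unadjusted p under 0.05 there were 0, and DESeq2 called 0, where it called 230 of 21638 genes in either direction.

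The order of the plain stages by mean level set the members apart. *hbae1.1* ran 48, 72, 24, and 96 hpf, then 20, 15, and 6 ss, with no overlap between neighbours in that order. *hbbe1.1*, *hbbe1.2*, and *hbbe1.3* had the same order, but their libraries of 24 and 96 hpf overlapped, and those of 6 and 15 ss overlapped for *hbbe1.2* and *hbbe1.3*. For *hbae1.3* and *hbae3*, 96 hpf came before 24 hpf, with overlap. *hbbe2* was highest at 96, 72, and 48 hpf, which overlapped. *hbbe3* was highest at 24 hpf, then 48 hpf, then 20 ss, without overlap, and its libraries of 6 ss, 15 ss, 72 hpf, and 96 hpf overlapped with their neighbours in the order.

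**Figure D3:**
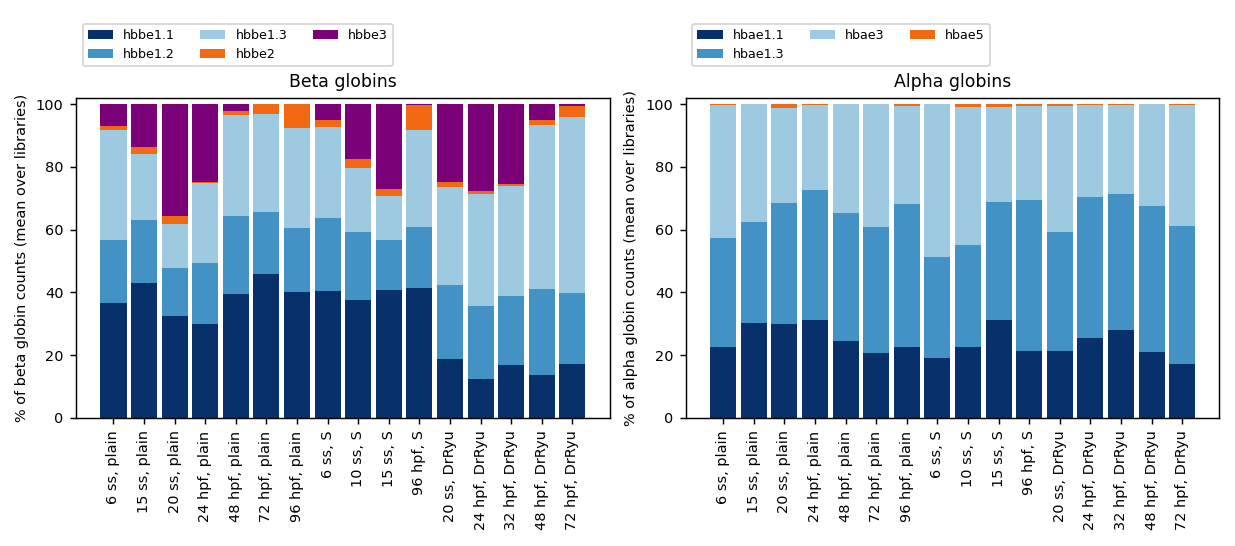
Mean share of each beta globin in beta globin counts and of each alpha globin in alpha globin counts, in percent, for the groups of stage and library set. *hbbe3* takes 35.7% of beta counts at 20 ss and 0.0629% at 96 hpf in the plain set, and *hbae5* takes at most 1.05% of alpha counts.

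The alpha chains changed their mix less than the beta chains did. Over the plain stages the mean share of alpha counts was 32.2% to 45.4% for *hbae1.3*, 27.0% to 42.6% for *hbae3*, and 20.7% to 31.2% for *hbae1.1*. *hbae5* took 1.05% at most. Of beta counts *hbbe2* took 0.601% at 24 hpf, 3.00% by 72 hpf, and 7.36% by 96 hpf in the plain set, and 8.07% in the S libraries of 96 hpf. The 3 members of the minor locus took 13.5% of globin counts at 24 hpf, 1.77% at 48 hpf, and 3.86% by 96 hpf in the plain set. DrRyu libraries had 14.3% at 24 hpf, 13.7% at 32 hpf, and 3.18% at 48 hpf.

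Profiles over the 16 group means of log2(CPM + 1) were compared by Pearson's r as a description, since groups share stages and library preparation. Against the mean profile of the 9 globins, r was 0.998 for *hbae1.1*, 0.997 for *hbae1.3* and *hbbe1.2*, 0.992 for *hbae3*, 0.990 for *hbbe1.3*, and 0.973 for *hbbe1.1*. It was 0.932 for *hbbe2*, 0.858 for *hbae5*, and 0.533 for *hbbe3*, which was the least like member for each of the other 8. *hbae5* was most like its neighbour *hbbe2*, with 0.902. The mean profile includes the member compared with it, which raises the r of members. Genes outside the members have no part in it, so their r is not on the same footing. Outside the members the closest genes were *casq2* with 0.988, *dcn* with 0.982, *trdn* with 0.981, *gap43* with 0.980, and *dct* with 0.979. *casq2* and *trdn* act in calcium handling of muscle, *dcn* encodes a matrix protein, *gap43* a protein of growing axons, and *dct* an enzyme of pigment cells. Of these 5, 3 stayed among the closest with a pseudocount of 0.1 in place of 1 and 2 with a pseudocount of 10.

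Other genes of red cells did not all move with the globins. Of 36 such genes tested, 4 were higher and 1 lower from 15 to 20 ss in the plain set, where 2.40% and 1.73% of all genes tested were. From 20 ss to 24 hpf 11 were higher and 2 lower, where 10.6% and 2.92% were. From 24 to 48 hpf 8 were higher and 11 lower, where 11.9% and 14.3% were, and from 48 to 72 hpf 0 higher and 6 lower, where 3.76% and 4.41% were. The median log2 fold changes of the 36 over these 4 steps were 0.37, 0.83, -0.20, and -0.40, where those of the 9 globins were 2.93, 3.63, 2.17, and -1.10 and those of all genes tested 0.00, 0.13, -0.03, and 0.03. Of 11 genes of the red cell membrane and of red cell enzymes, 6 were higher from 20 ss to 24 hpf, and from 24 to 48 hpf 6 were higher and 1 lower.

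The anion exchanger *slc4a1a* had means of 1.64 CPM at 20 ss, 33.5 at 24 hpf, 92.6 at 48 hpf, and 20.8 by 72 hpf, with an r of 0.961 to the globin profile. *alas2*, the first enzyme of heme synthesis in red cells, had 9.02 CPM at 20 ss, 34.3 at 24 hpf, 70.1 at 48 hpf, and 19.8 by 72 hpf, with an r of 0.945. These 2 are not typical of their lists. Over the genes of heme and iron r ran from -0.587 (*slc25a37*) to 0.945 (*alas2*). Over those of the red cell membrane and enzymes it ran from -0.719 (*nt5c2l1*) to 0.964 (*ank1a*). Of 16 genes of heme and iron, 7 fell from 24 to 48 hpf, where 14.3% of all genes tested did. Of the same 16, 1, *alas2*, rose, where 11.9% of all genes tested did. Among those that fell were *cpox*, by 1.91 on the log2 scale (SE 0.28), *urod*, by 2.09 (SE 0.61), and *hmbsb*, by 1.79 (SE 0.48), which encode later enzymes of heme synthesis. *gata1a*, a transcription factor that red cells need, had 2.28 CPM at 6 ss, 12.9 at 15 ss, 9.62 at 24 hpf, and 2.16 at 48 hpf. It rose from 6 to 15 ss (2.47 ± 0.72, adjusted p = 0.0366, edgeR) and fell from 24 to 48 hpf, by 2.11 (SE 0.63), the step in which 7 globins rose. *tal1* and *lmo2*, factors of early blood and vessel cells, fell from 20 ss to 24 hpf, by 0.68 and 1.06. To the globin profile, r was -0.457 for *gata1a*, -0.752 for *tal1*, -0.934 for *lmo2*, -0.909 for *klf17*, and -0.351 for *zfpm1*. The other factors of the list went the other way, with 0.970 for *hemgn*, 0.838 for *klf1*, 0.760 for *nfe2*, and 0.375 for *klf3*.

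Adult globin genes were low at 72 and 96 hpf. The highest group means were 3.45 CPM for *hbaa1* and 10.1 CPM for *hbba1*, both in plain libraries of 6 ss. They were 14.7 CPM for *hbaa2* in DrRyu libraries of 20 ss and 3.46 CPM for *hbba2* in plain libraries of 48 hpf. At 6 ss the mean of *hbba1* thus lay within the 6.35 to 13.4 CPM of the major locus in the plain set. At 72 and 96 hpf the means of *hbaa1*, *hbaa2*, *hbba1*, and *hbba2* were at most 0.614, 0.628, 0.437, and 0.563 CPM. *hbae1.2* and *hbae4* were not analysed here under these symbols. Of globins outside red cells, *mb*, which encodes myoglobin, had 0.241 CPM at 6 ss and 47.4 CPM at 96 hpf in the plain set.

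DrRyu libraries of one stage differed from each other more than plain libraries did. The highest summed globin level of a group was 1.24 times the lowest at 24 hpf, 1.21 times at 48 hpf, and 1.14 times by 72 hpf in the plain set. In the DrRyu set it was 13.1, 10.3, and 24.3 times, and without the libraries numbered 2 it was 2.38, 2.43, and 2.08 times. At 32 hpf, where no library was left out, it was 21.1 times. There the 8 libraries had 1975 CPM at the lowest, 6748 at the median, and 41755 at the highest. All 9 members took part, from an 8.72-fold range for *hbae5* to a 30.4-fold range for *hbbe3*, 189 to 5743 CPM.

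The red cell genes *slc4a1a*, *alas2*, and *cahz* were highest in the same libraries of 32 hpf as the globins. Libraries 3 and 4 were highest in summed globins, with 41755 and 28108 CPM. They were also highest in *slc4a1a*, with 126.5 and 87.0 CPM, in *alas2*, with 75.4 and 83.3 CPM, and in *cahz*, a carbonic anhydrase of red cells, with 178.2 and 144.4 CPM. Library 8 was lowest in globins, with 1975 CPM, in *slc4a1a*, with 9.06 CPM, and in *alas2*, with 2.45 CPM. The muscle gene *mylpfa* stayed between 1894 and 2601 CPM in the same libraries. The rest of the red cell genes followed are not given singly for these libraries. As mean log2 levels of lists, red cell membrane and enzyme genes ran from 3.57 to 5.18, and heme and iron genes from 2.38 to 3.64. Red cell factors ran from 1.90 to 3.25, myeloid genes from 2.62 to 3.30, and endothelial genes from 3.87 to 4.44. Liver genes ran from 6.68 to 7.53, and muscle genes from 10.1 to 10.8. By chi-square per gene over all genes, this group held the most unlike pair of libraries of any group (72.9). What moved *slc4a1a*, *alas2*, and *cahz* with the globins was not tested.

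**Figure D4:**
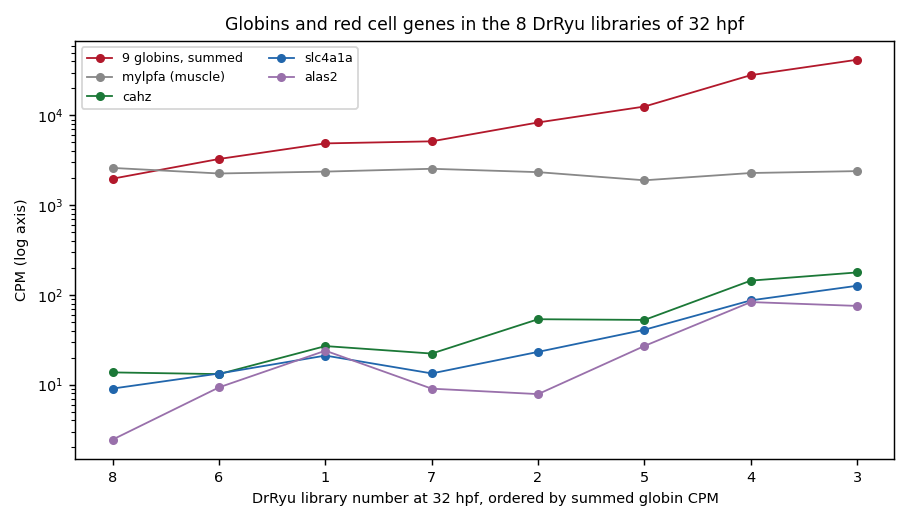
Summed CPM of the 9 globins and CPM of other red cell genes and of a muscle gene (log axis) in the 8 DrRyu libraries of 32 hpf. Globins run from 1975 to 41755 CPM with *slc4a1a*, *alas2*, and *cahz* highest in the same 2 libraries, whereas *mylpfa* stays between 1894 and 2601 CPM.

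The 3 DrRyu libraries numbered 2 were low in most globins and in some other red cell genes. At 24 hpf library 2 had 102.8 CPM of *hbae1.1*, where the 7 others had 660 to 1312 CPM, and 106 CPM of *hbbe3*, where they had 639 to 1466 CPM. It had 0.920 CPM of *slc4a1a*, where they had 4.57 to 19.8 CPM. At 48 hpf library 2 had 801 CPM of *hbae1.1* against 2894 to 6258 CPM, and 0.00 CPM of *alas2* against 17.9 to 103 CPM. At 72 hpf it had 140.0 CPM of *hbae1.1* against 1124 to 2507 CPM, and 0.00 CPM of *alas2* against 6.41 to 43.0 CPM. Other genes lay within the range of the 7 others. At 24 hpf these were *alas2* (6.90 CPM against 6.34 to 28.4), *cahz* (17.5 against 13.7 to 50.5), and *hemgn*, a nuclear protein of red cells (8.51 against 7.83 to 21.3). At 72 hpf they were *hemgn* (19.5 CPM against 12.7 to 43.8), *hbbe3* (10.2 against 9.45 to 76.0), and *hbae5* (2.47 against 1.01 to 18.4). The muscle gene *mylpfa* was not low in this way: library 2 had 1476 CPM at 24 hpf against 898 to 1435 CPM, 3149 CPM at 48 hpf against 2271 to 3983 CPM, and 2967 CPM at 72 hpf against 2980 to 4341 CPM. Without these libraries the numbers of globins called in either direction in the DrRyu steps were 9, 7, 8, 7, and 7, against 9, 7, 8, 7, and 6 with them, in the order 20 ss to 24 hpf, 24 to 32, 32 to 48, 24 to 48, and 48 to 72 hpf. Over all genes, 5749, 2542, 4049, 5576, and 3676 of 21619 were called without them, in the same order. With them, calls were 5858, 2611, 4176, 5949, and 3917 of 21638.

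The copies of *hbbe1* were split differently in the sets. *hbbe1.1* was lower in DrRyu than in plain libraries at each shared stage, without overlap, by 2.16 (SE 0.33) on the log2 scale at 20 ss, 2.11 (SE 0.31) at 24 hpf, 1.67 (SE 0.30) at 48 hpf, and 1.65 (SE 0.30) by 72 hpf. At 24 hpf it was 1 of 2 globins called lower, beside *hbae1.1*, where 13.2% of all genes tested were. At 48 hpf it was the 1 called lower, where 8.24% were, and *hbbe3* was the 1 called higher, by 0.98 ± 0.31, where 6.04% were. Without the libraries numbered 2 *hbbe1.3* was called higher as well (0.75, adjusted p = 0.0204, edgeR), as it was with library totals without TMM (0.83, adjusted p = 0.0359). At 72 hpf *hbbe1.1* was again the 1 called lower, where 8.26% were, and 3 were called higher, where 5.52% were. These were *hbbe1.3* with 0.83 ± 0.29, *hbbe3* with 2.35 ± 0.37, and *hbae5* with 1.36 ± 0.49. DESeq2 called 1, 1, and 2 globins in all at these 3 stages, where 3508, 2847, and 2772 of 21638 genes were called. Of the counts of the *hbbe1* copies, *hbbe1.1* took 39.1% to 48.9% in plain libraries of 24, 48, and 72 hpf and 9.98% to 35.3% in DrRyu libraries.

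Within some groups this share fell into separate ranges. At 24 hpf DrRyu libraries 6, 7, and 8 had 24.8%, 25.5%, and 25.4%, and the other 5 had 9.98% to 16.8%. At 48 hpf libraries 5 and 7 had 23.6% and 24.1%, and the other 6 had 10.5% to 12.2%. At 72 hpf libraries 7 and 8 had 26.3% and 26.4%, library 2 had 35.3%, and the other 5 had 10.6% to 12.1%. All DrRyu libraries of 32 hpf lay between 18.5% and 25.4%. The S libraries of 96 hpf, listed with a used number of 1, had 33.3% to 35.3% in libraries 2, 3, and 6 and 50.7% to 54.1% in the other 5. Plain libraries of 96 hpf, listed with 5, ran from 33.7% to 52.0%. Those of 24, 48, and 72 hpf, listed with 50, stayed within 39.1% to 42.2%, 40.1% to 41.9%, and 46.6% to 48.9%, respectively. Exact binomial 95% intervals of single libraries from 24 hpf on were at most 4.41 percentage points wide, so the gaps exceed the counting error. Their cause was not tested.

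**Figure D5:**
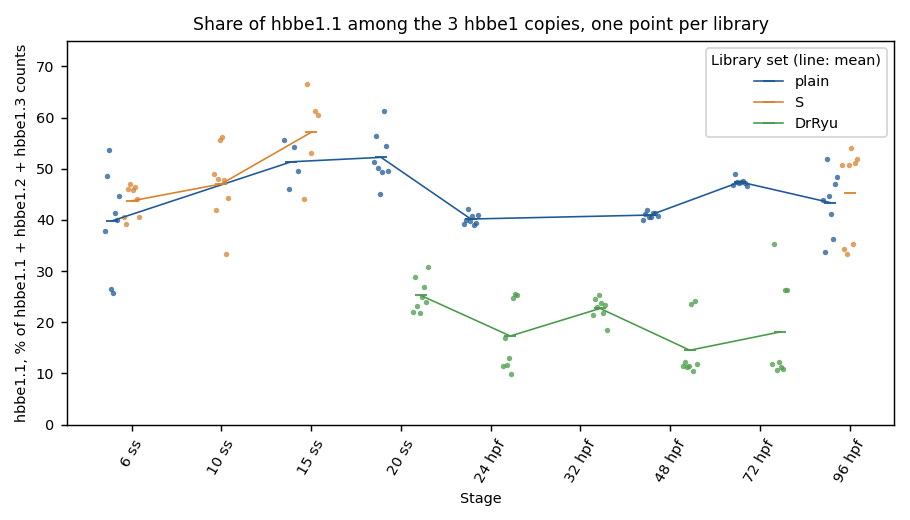
Counts of *hbbe1.1* as a percentage of the counts of *hbbe1.1*, *hbbe1.2*, and *hbbe1.3* by stage, with 1 point per library, coloured by library set. Plain libraries of 24, 48, and 72 hpf lie between 39.1% and 48.9%, DrRyu libraries lie lower and part into ranges at 24, 48, and 72 hpf, and S libraries of 96 hpf leave a gap between 35.3% and 50.7%.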

How the data were processed

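Lasy-Seq reads of whole zebrafish embryos were trimmed with fastp 0.21.0, aligned to the Ensembl GRCz11 cDNA with BWA 0.7.17-r1188, and quantified with salmon, per the study's methods. The authors deposited a table of estimated counts by gene symbol, not normalized; values that were not whole were rounded here. Totals of 866854 to 21646478 counts per library set the counting error.

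R 4.3.3 and edgeR 4.0.16 were used (TMM, quasi-likelihood F-test). One fit held 16 means, one for each stage in each library set, over the 21638 symbols that had 1 count or more in 8 libraries or more. Benjamini-Hochberg adjustment ran over all of these within a contrast, and calls were made at an adjusted p under 0.05. Numbers of globins at an unadjusted p under 0.05 stand without the share of all genes tested. The 27 contrasts were 15 stage steps within a set, 7 differences between sets at one stage, and 5 differences between sets in a step. The standard error is the size of the log2 fold change divided by the square root of F. Sums and shares over globins carry no test. The members and gene lists were chosen with earlier results of these data known. All 9 members are named, other genes where they carry the account, and 5 genes by the highest Pearson's r. The RefSeq table of GRCz12tu, which held 9 of 9 members and 19142 of 24801 symbols, served for gene order only. Alternatives were DESeq2 1.42.0, totals without TMM, no filter, filterByExpr, each set alone, libraries of low total left out, each 15 ss library left out, the replicate number as a block, CPM from totals, other pseudocounts, and, chosen after seeing the data, 3 DrRyu libraries left out. The fit was tested on simulated counts. No 2 libraries of a group agreed within sampling noise.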

Additional observations from a re-analysis of the deposited data

Results flagged for a closer look

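In 158 sets of 4 to 8 libraries, the 9 globins and their sum were searched for a highest or lowest library far from the rest. Dixon's criterion at 95% was used, which chance meets in about 1 of 20 independent sets. In these sets, which share libraries and are not independent, 38 such cases were found. Values are log2(CPM + 1). Most were the DrRyu libraries numbered 2, all low. At 24 hpf that library had 6.70 for *hbae1.1*, 7.68 for *hbae1.3*, 6.79 for *hbae3*, 0.00 for *hbae5*, 5.60 for *hbbe1.1*, 6.68 for *hbbe1.2*, 7.07 for *hbbe1.3*, 2.15 for *hbbe2*, 6.74 for *hbbe3*, and 9.66 for the sum. At 48 hpf it had 9.65 for *hbae1.1*, 10.68 for *hbae1.3*, 9.99 for *hbae3*, 8.43 for *hbbe1.1*, 9.74 for *hbbe1.2*, 10.65 for *hbbe1.3*, and 12.67 for the sum. At 72 hpf it had 7.14 for *hbae1.1*, 8.26 for *hbae1.3*, 7.94 for *hbae3*, 6.73 for *hbbe1.2*, 8.05 for *hbbe1.3*, 4.56 for *hbbe2*, and 10.34 for the sum.

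Among plain libraries, library 1 of 48 hpf was low in *hbbe1.1* (12.59) and *hbbe1.3* (12.27), and library 3 of 96 hpf was low in *hbbe1.3* (9.41) and the sum (12.49). Library 6 of 24 hpf was high in *hbbe1.2* (10.23), library 3 of 6 ss was low in *hbbe1.3* (2.64), and library 6 of 6 ss was high in *hbae5* (0.48), from 1 count. Among S libraries of 6 ss, library 5 was high in *hbbe1.1* (4.66), library 2 low in *hbbe1.2* (1.81), and library 7 low in *hbbe3* (0.46). At 10 ss library 2 was high in *hbae1.1* (4.39), library 6 high in *hbae5* (1.90), and library 7 low in *hbbe1.1* (3.62), and at 15 ss library 1 was low in *hbae5* (0.00).

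Stage steps differed between the DrRyu and plain sets for 3 globins by a test of the difference in edgeR. From 20 ss to 24 hpf the log2 difference was 2.63 for *hbae5* and 1.92 for *hbbe2*, and from 24 to 48 hpf it was 1.59 for *hbbe3*.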

How the results depend on the processing

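No result reversed under any alternative. Of the counts of globins called, 191 stayed within 1.5 times and 21 moved. For single globins in single contrasts, 1825 values kept direction and call, 24 gained a call, and 59 lost one. With each library set fitted alone, the counts became 5 for 6 to 15 ss, 9 for 48 to 72 hpf, and 8 for 72 to 96 hpf in the plain set, 7 for 10 to 15 ss in the S set, and 1, 5, and 1 for 24 to 32, 32 to 48, and 48 to 72 hpf in the DrRyu set. Calls over all genes moved too. From 20 ss to 24 hpf they went from 2915 of 21638 to 4847 of 20304 genes in the plain set. In the DrRyu set they went from 5858 of 21638 to 2858 of 18497 genes. For 72 to 96 hpf the plain set alone gave 2700 of 20304 genes. DESeq2 gave 4 for 24 to 32 hpf in the DrRyu set, 1, 1, and 2 between the DrRyu and plain sets at 24, 48, and 72 hpf, and 0 for the difference in the step from 24 to 48 hpf. Without the 3 DrRyu libraries numbered 2, chosen after seeing the data, the difference in the step from 20 ss to 24 hpf gave 4. Leaving out each 15 ss library gave 1 to 5 between S and plain libraries of 15 ss. Over all genes it gave 122 to 165 calls in either direction, against 183 with all libraries. The causes of these changes were not tested.

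Replicate numbers showed little sign of pairing over many genes: of same-numbered libraries, deviations from group means correlated above 0.1 in 0 of 144 pairs in the plain, 0 of 39 in the S, and 4 of 80 in the DrRyu set. Such a correlation cannot exclude pairing, and the DrRyu libraries numbered 2 were low in most globins at 24, 48, and 72 hpf. With the replicate block 1 globin was called for the difference in the step from 20 ss to 24 hpf, and other counts stayed within 1.5 times. With CPM from library totals the mean summed globin level was 8903 CPM in place of 10002 at 24 hpf, 29060 in place of 35291 at 48 hpf, and 16756 in place of 17729 at 72 hpf in the plain set. Below 15 ss, with levels of a few CPM, depth limits what *hbbe2* and *hbae5* can show.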
